A study of Homo sapiens with 12 samples.

Results

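The 10 genes described here (DUSP4, DUSP5, DUSP6, SPRY2, SPRY4, SPRED1, ETV4, ETV5, EGR1 and PHLDA1) are feedback and output genes of the MAPK pathway, the signalling chain from RAS through RAF and MEK to the kinase ERK. They were chosen by name from the 40173 gene IDs of a table of TPM (transcript abundance scaled for length and library), each matched 1 gene ID, and all 10 were among the 12773 genes tested, those averaging 2 TPM or more in at least 1 condition. RNA was sequenced from 624Mel, an established human melanoma cell line. The 4 conditions, with 3 libraries each, were a control siRNA (siCTRL), the control siRNA with interferon-γ (siCTRL + IFNγ), an siRNA against the melanocyte transcription factor MITF (siMITF), and both together (siMITF + IFNγ). All cells were reverse-transfected. IFNγ was added at 5 ng/mL 24 h after transfection and the cells were collected 24 h later. The model is a single line with a single siRNA against MITF, and p-values measure the spread between the 3 libraries of a condition. The study's methods describe its experiments in general as independent biological replicates, and the labels do not tie each library to a culture.

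ERK is the last kinase of the pathway, and in melanoma the pathway is often kept active by mutations in BRAF or NRAS. When ERK is active it switches on genes whose products act against the pathway itself. Among them are dual-specificity phosphatases (DUSPs), which remove the activating phosphates from MAP kinases, and the Sprouty and Spred proteins, which act upstream near RAS and RAF. Other ERK-dependent genes encode transcription factors, such as the ETS factors ETV4 and ETV5 and the zinc finger factor EGR1. Transcript levels of these genes are often read as a measure of ERK output, which was not measured directly in these libraries.

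The siRNA target was checked first. MITF measured 187, 229 and 217 TPM in the siCTRL libraries and 36, 49.7 and 41.7 TPM in the siMITF libraries. With IFNγ it measured 158, 246 and 243 TPM after siCTRL and 37.5, 55.1 and 51.3 TPM after siMITF. All 6 siMITF libraries lay below all 6 siCTRL libraries, and the log2 change was -2.29 ± 0.19 (SE; limma, adjusted p = 1.2e-06) without IFNγ and -2.14 ± 0.19 (adjusted p = 2.4e-06) with it. The 5 melanocytic markers (MLANA, PMEL, TYR, DCT and SOX10) all reached 2 TPM and summed to 5260 to 6994 TPM in the siCTRL conditions and to 1373 to 1747 TPM in the siMITF conditions. PMEL made up most of the sum, and the markers fell unequally. From siCTRL to siMITF without IFNγ the means went from 4827 to 1078 TPM for PMEL and from 475 to 17.2 TPM for MLANA. They went from 244 to 22.4 TPM for DCT, from 367 to 223 TPM for TYR and from 263 to 226 TPM for SOX10. None of the 3 keratinocyte, 3 fibroblast and 3 endothelial markers reached 2 TPM in any library. Of the 4 leukocyte markers 1 did, LYZ, and CD3E was listed at 0 throughout. LYZ averaged 2.44 TPM in siCTRL, 1.46 TPM in siCTRL + IFNγ, 4.74 TPM in siMITF and 3.03 TPM in siMITF + IFNγ libraries. The sum of the 4 markers, most of it LYZ, ran from 2.58 to 2.84, 1.6 to 1.92, 4.52 to 5.48 and 3.54 to 3.85 TPM in the same order. PTPRC averaged 0.212, 0.3, 0.17 and 0.616 TPM, higher with IFNγ where LYZ was lower. So LYZ moved with the conditions, and the list did not move as a whole. The part of this in the results was not tested. Mitochondrial genes took 7.42% to 16.86% of the TPM. Sequencing depth is unknown from TPM.

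In siCTRL cells the 10 genes spanned from a mean of 7.58 TPM to 162 TPM, a scale per transcript length that can be compared between genes. ETV5 was highest (162 ± 15 TPM, SD, n = 3), followed by PHLDA1 (115 ± 9.18), DUSP6 (99.6 ± 7.11), ETV4 (96.5 ± 1.19) and DUSP4 (77.7 ± 5.2). SPRY4 (38.1 ± 2.05), SPRED1 (37.2 ± 3.62) and SPRY2 (30.2 ± 3.5) formed the middle of the order, and EGR1 (20.6 ± 3.91) and DUSP5 (7.58 ± 0.462) the bottom. The libraries of DUSP6 and ETV4 overlapped, as did those of SPRY4 and SPRED1 and those of SPRED1 and SPRY2, so the order within these pairs did not exceed their spread.

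**Figure D1:**
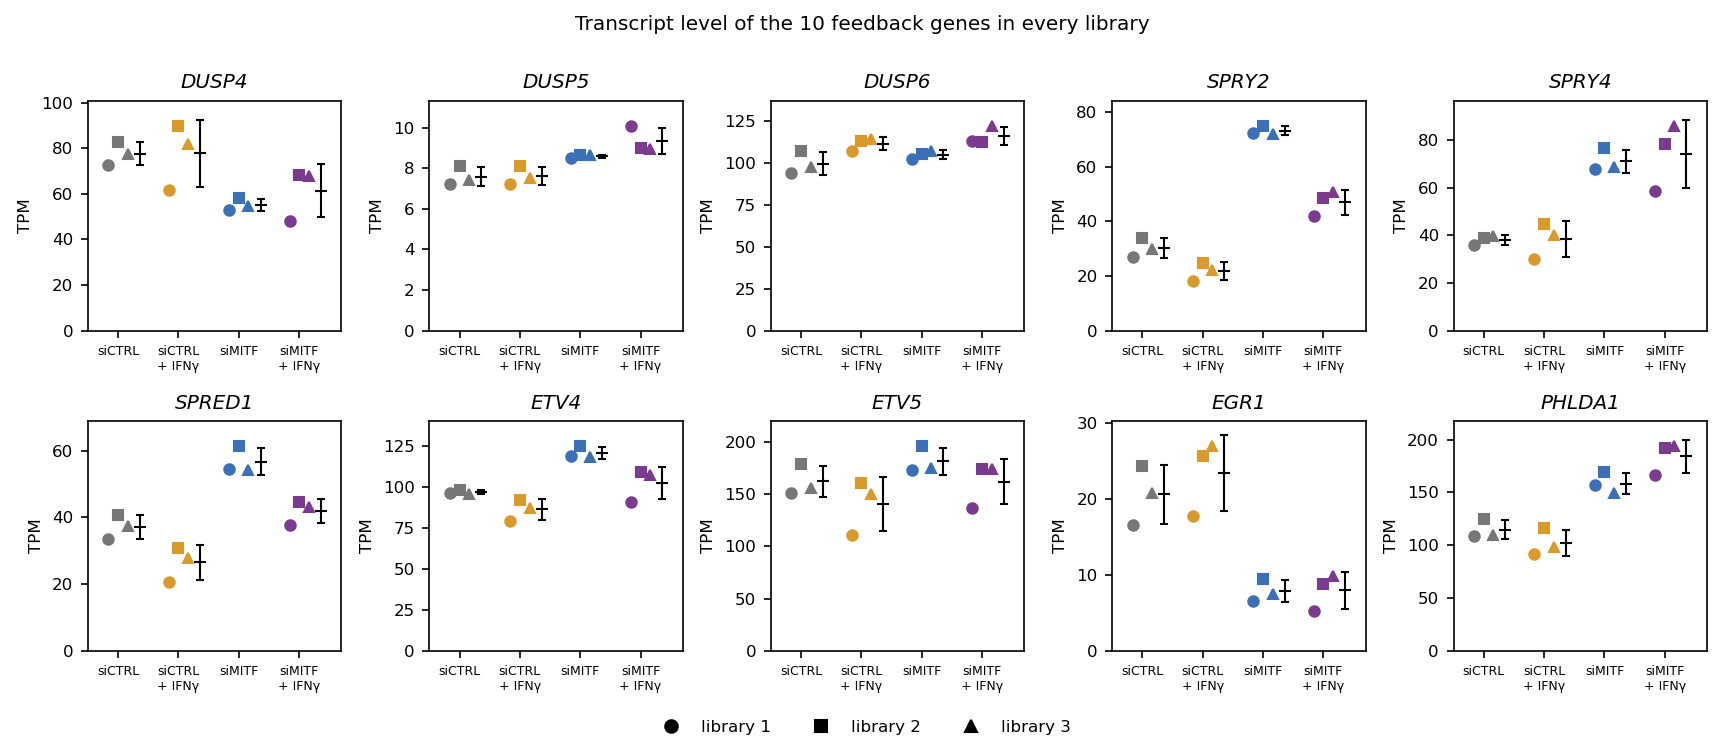
TPM of each gene on the vertical axis (from 0, a separate scale per gene) in the 4 conditions, with a point per library, its shape giving the library number, and the mean ± SD of 3 libraries as a bar beside them. SPRY2, SPRY4, PHLDA1 and, by a small margin, DUSP5 stand higher in all 6 siMITF libraries than in the 6 siCTRL libraries, and EGR1 stands lower.

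The first question was how the genes changed when MITF was knocked down. The Sprouty and Spred genes and PHLDA1 rose, ETV4 rose by less, EGR1 and DUSP4 fell, and DUSP6, DUSP5 and ETV5 did not pass the test without IFNγ. Without IFNγ 5 of the 10 genes rose and 2 fell at an adjusted p under 0.05 in limma, where 21.0% of all tested genes rose and 13.8% fell. With IFNγ 6 rose and 1 fell, where 18.4% of tested genes rose and 14.7% fell. That split of 2348 higher and 1881 lower genes became 1847 and 2402 without siCTRL + IFNγ library 1, and 2641 and 1389 without siCTRL + IFNγ library 2. The median log2 change of the 10 genes was 0.24 without and 0.25 with IFNγ, beside 0.06 and 0.03 for all tested genes. In bulk RNA a change in every cell and a change in some of the cells cannot be told apart.

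The 3 phosphatases did not move together. DUSP4 encodes a nuclear phosphatase that acts on ERK and other MAP kinases, and its gene lies on chromosome 8. It measured 72.7, 83 and 77.4 TPM in siCTRL and 52.8, 58.2 and 54.7 TPM in siMITF libraries, without overlap. DUSP4 fell by 0.48 ± 0.15 (SE) on the log2 scale (adjusted p = 0.024). With IFNγ the libraries overlapped, at 61.6, 90 and 81.9 TPM after siCTRL and 47.9, 68.5 and 67.7 TPM after siMITF, with the library numbered 1 the lowest in both conditions. The log2 change there was -0.34 ± 0.15 (adjusted p = 0.103), and it passed with the replicate number as a block (adjusted p = 0.00746) and without the siCTRL + IFNγ library 1. It also passed with quantile normalization (adjusted p = 0.0145), median centring (0.006) and length and GC trends removed (0.0379). The call without IFNγ was lost when siCTRL library 2 or 3 or siMITF library 1 or 3 was left out. It was also lost without a filter on low values (adjusted p = 0.0716), with adjusted p of at most 0.0776 over all alternatives.

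DUSP6 encodes the cytoplasmic phosphatase that is selective for ERK (chr12:89347235-89352501, minus strand, GRCh38). It measured 93.7, 107 and 97.6 TPM in siCTRL and 102, 105 and 107 TPM in siMITF libraries, and the ranges overlapped. The log2 change was 0.08 with a 95% interval from -0.07 to 0.23 (adjusted p = 0.431), and with IFNγ it was 0.06 with an interval from -0.09 to 0.21. DUSP5, a nuclear ERK phosphatase (chr10:110497907-110511533, plus strand), had the lowest level, at 7.22, 8.1 and 7.43 TPM in siCTRL and 8.5, 8.65 and 8.63 TPM in siMITF libraries. Its 3 siMITF libraries lay above the 3 siCTRL libraries, but the log2 change of 0.16 ± 0.09 (SE) did not pass (adjusted p = 0.177). With IFNγ DUSP5 rose from 7.23, 8.12 and 7.5 TPM to 10.1, 9.01 and 8.94 TPM, a log2 change of 0.26 ± 0.09 (adjusted p = 0.0346). That call held in 5 of 12 leave-one-out fits, and was lost without siCTRL library 3, siCTRL + IFNγ library 1 or 3, siMITF library 1 or 2, or siMITF + IFNγ library 1 or 2. It was also lost with quantile normalization (adjusted p = 0.0839) and with only the 2 conditions compared (adjusted p = 0.164).

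The Sprouty and Spred genes rose as a group, 3 of 3 in both comparisons. SPRY2 encodes an inhibitor that growth factor signalling induces and that acts between receptors and RAS (chr13:80335976-80341126, minus strand). It measured 26.9, 33.9 and 29.8 TPM in siCTRL and 72.4, 75 and 71.9 TPM in siMITF libraries. Every siMITF library was above every siCTRL library, and the log2 change of 1.25 ± 0.12 (SE) was the largest rise among the 10 genes (adjusted p = 3.7e-06). With IFNγ SPRY2 went from 18.3, 24.8 and 22.2 TPM to 41.9, 48.4 and 50.7 TPM, a log2 change of 1.08 ± 0.12 (adjusted p = 1.5e-05). These were the only rises among the 10 genes of at least 1 on the log2 scale.

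SPRY4, a relative that also dampens RAS signalling (chr5:142310427-142326455, minus strand), measured 35.8, 38.9 and 39.7 TPM in siCTRL and 67.6, 76.5 and 68.8 TPM in siMITF libraries. The conditions were far apart, with a log2 change of 0.88 ± 0.15 (SE; adjusted p = 6.9e-04). With IFNγ the values were 29.9, 44.7 and 40.1 TPM against 58.4, 78.4 and 86 TPM, a log2 change of 0.94 ± 0.15 (adjusted p = 4.3e-04). SPRED1, which with neurofibromin restrains RAS (chr15:38252836-38357249, plus strand), measured 33.4, 40.7 and 37.4 TPM in siCTRL and 54.5, 61.4 and 54.1 TPM in siMITF libraries. It rose by 0.60 ± 0.13 (adjusted p = 0.00363) without IFNγ. With IFNγ SPRED1 rose from 20.7, 30.8 and 27.9 TPM to 37.7, 44.5 and 43.2 TPM, by 0.65 ± 0.13 (adjusted p = 0.00214). All 6 of these calls for SPRY2, SPRY4 and SPRED1 held in each of the 12 fits that left out 1 library.

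The sequences before the start of SPRY2 and SPRED1 are shown because these genes both rose after siMITF and, as described further on, both fell with IFNγ. They are the 250 bases before the most upstream RefSeq start of SPRY2 (chr13:80341127-80341376, minus strand, GRCh38.p14) and before that of SPRED1 (chr15:38252586-38252835, plus strand), 5′ to 3′. Capitals mark a match on either strand to any of 5 motifs, namely CACGTG (E-box) and CATGTG (core of the M-box), both recognised by MITF and related factors, TTCNNNGAA (GAS, the interferon-γ activated sequence), TGANTCA (AP-1) and the CArG box of serum response factor. No 2 of these matches overlapped in the sequences printed here.
SPRY2: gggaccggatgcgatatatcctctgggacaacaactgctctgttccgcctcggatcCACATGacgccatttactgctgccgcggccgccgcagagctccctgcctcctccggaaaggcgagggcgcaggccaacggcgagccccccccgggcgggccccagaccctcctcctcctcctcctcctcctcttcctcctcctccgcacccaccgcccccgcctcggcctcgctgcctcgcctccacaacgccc
SPRED1: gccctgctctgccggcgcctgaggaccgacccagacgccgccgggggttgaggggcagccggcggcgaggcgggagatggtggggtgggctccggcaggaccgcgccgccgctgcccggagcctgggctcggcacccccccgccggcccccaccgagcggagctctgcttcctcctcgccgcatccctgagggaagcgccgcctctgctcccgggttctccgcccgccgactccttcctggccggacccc
The SPRY2 sequence held 1 match, the M-box core read from the other strand, from 194 to 189 bases before the start. A match of that motif was present in 9.42% of all 35116 promoters of the table. The SPRED1 sequence held no match to any of the 5. A match describes letters in this window and not a bound site, and the other 2 starts of SPRY2 held none. The motif search covered 6 of the 10 genes, and DUSP6, PHLDA1 and SPRY4 had no match either.

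The 4 output genes moved in different directions. EGR1 encodes an immediate early zinc finger factor that ERK induces through serum response factor (chr5:138465479-138469303, plus strand). It measured 16.6, 24.4 and 20.8 TPM in siCTRL and 6.61, 9.43 and 7.47 TPM in siMITF libraries, and the log2 change was -1.29 ± 0.22 (SE; adjusted p = 6.5e-04). With IFNγ EGR1 fell from 17.7, 25.6 and 27 TPM to 5.24, 8.85 and 9.79 TPM, by 1.46 ± 0.22 on the log2 scale (adjusted p = 2.5e-04). Every siMITF library lay below every siCTRL library in both comparisons, and both calls held in all 12 fits that left out 1 library. EGR1 was the only one of the 10 genes to fall by at least 1 on the log2 scale.

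The 250 bases before the start of EGR1 (chr5:138465229-138465478, plus strand, GRCh38.p14, RefSeq) are shown for contrast with SPRY2 and SPRED1, with the same 5 motifs in capitals.
EGR1: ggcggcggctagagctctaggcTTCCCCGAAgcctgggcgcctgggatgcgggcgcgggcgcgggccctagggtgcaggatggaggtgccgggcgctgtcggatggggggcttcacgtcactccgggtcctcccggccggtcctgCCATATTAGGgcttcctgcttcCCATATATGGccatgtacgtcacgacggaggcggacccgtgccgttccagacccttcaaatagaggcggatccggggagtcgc
It held 1 GAS match, from 228 to 220 bases before the start, and 2 CArG boxes, from 105 to 96 and from 83 to 74 bases before it. GAS matches were present in 6.57% and CArG boxes in 1.16% of all promoters of the table, E-boxes in 6.34% and AP-1 matches in 6.57%.

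PHLDA1, which encodes a pleckstrin homology-like protein induced by growth factor signalling (chr12:76025447-76031776, minus strand), measured 109, 125 and 110 TPM in siCTRL and 157, 169 and 149 TPM in siMITF libraries. The siMITF libraries were all higher, and PHLDA1 rose by 0.46 ± 0.10 (SE; adjusted p = 0.00313). With IFNγ the libraries were further apart, at 92.1, 116 and 97.8 TPM after siCTRL and 166, 192 and 194 TPM after siMITF, a log2 change of 0.84 ± 0.10 (adjusted p = 3.2e-05). Both calls held in each fit that left out 1 library.

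ETV4 and ETV5 encode related ETS transcription factors that are stabilised and induced by ERK. ETV4 (chr17:43527844-43579620, minus strand) measured 96.3, 97.9 and 95.5 TPM in siCTRL and 119, 125 and 118 TPM in siMITF libraries. It rose without overlap, by 0.32 ± 0.08 (SE; adjusted p = 0.00904). With IFNγ ETV4 went from 79, 92.2 and 87.4 TPM to 90.8, 109 and 107 TPM with overlap, a log2 change of 0.24 ± 0.08 (adjusted p = 0.0372), and this call held in 3 of 12 fits, those without siCTRL library 2, siCTRL + IFNγ library 2 or siMITF + IFNγ library 1. The ETV4 call with IFNγ was also lost without a filter on low values (adjusted p = 0.0547), without the intensity trend (0.0539) and with only the 2 conditions compared (0.162). ETV5 (chr3:186046314-186110318, minus strand) measured 151, 179 and 156 TPM in siCTRL and 173, 196 and 175 TPM in siMITF libraries, which overlapped. Its log2 change was 0.16 with a 95% interval from -0.13 to 0.46 (adjusted p = 0.388). With IFNγ ETV5 measured 111, 160 and 150 TPM after siCTRL and 137, 174 and 174 TPM after siMITF, a log2 change of 0.21 ± 0.14 (SE; adjusted p = 0.258), which passed with the replicate number as a block (adjusted p = 0.0429). It also passed with median centring (adjusted p = 0.0377) and with length and GC trends removed together with the block (0.0289).

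**Figure D2:**
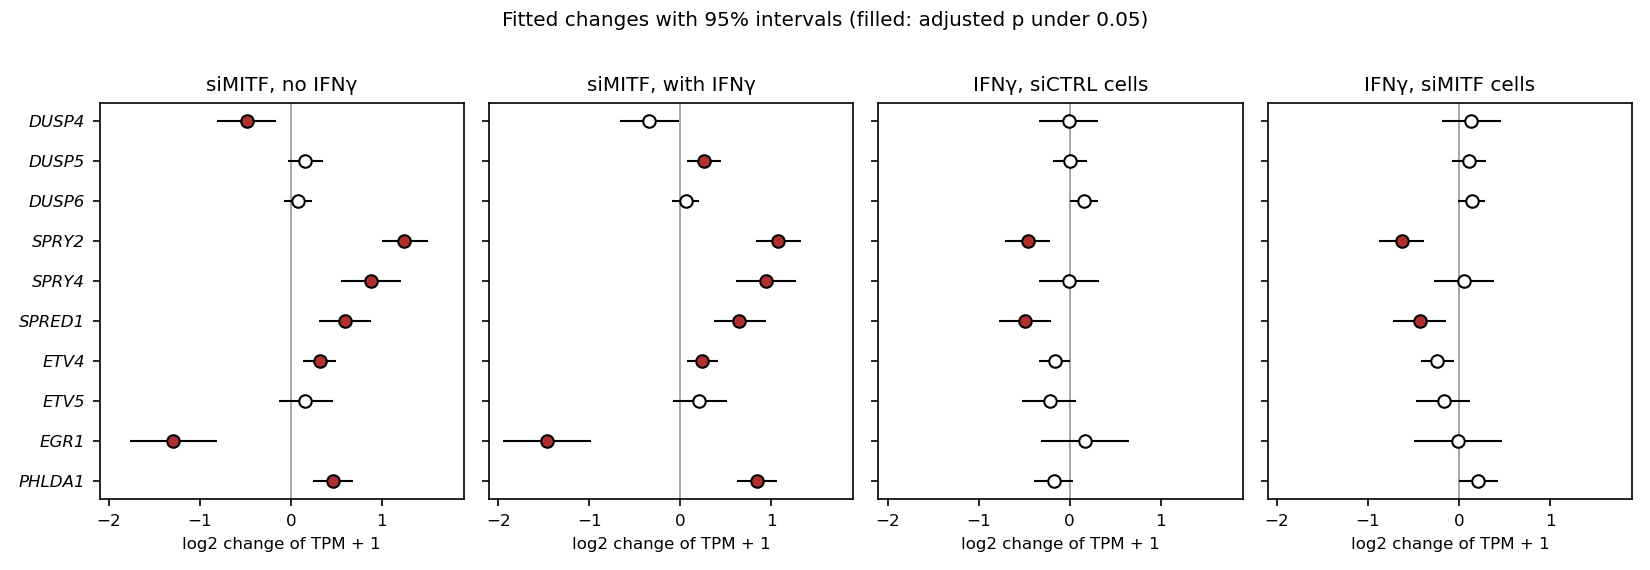
Fitted log2 change of TPM + 1 (horizontal axis) of each gene in the 4 comparisons, with 95% intervals from limma on 12 libraries and filled points for adjusted p under 0.05. The 3 Sprouty and Spred genes lie between 0.60 and 1.25 after siMITF without IFNγ while EGR1 lies at -1.29. For the effect of IFNγ itself, in siCTRL and in siMITF cells, only SPRY2 and SPRED1 are filled, both below 0.

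Levels within a library can also be read against DUSP6, the gene with the smallest fitted change after siMITF without IFNγ, which removes any factor common to the library. The ratio of SPRY2 to DUSP6 TPM was 0.287, 0.315 and 0.305 in siCTRL and 0.707, 0.712 and 0.672 in siMITF libraries. For EGR1 the ratio was 0.178, 0.227 and 0.213 in siCTRL and 0.0646, 0.0895 and 0.0698 in siMITF libraries. DUSP4 had ratios of 0.776, 0.773 and 0.793 in siCTRL and of 0.516, 0.553 and 0.511 in siMITF libraries. The conditions were separate for these 3 genes on this scale too. DUSP6 was picked as the reference after its values were seen, so the ratios are given without a test.

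The second question was how the genes responded to IFNγ. SPRY2 and SPRED1 fell and none rose, with 2 of the 10 genes lower in siCTRL cells and the same 2 lower in siMITF cells. In siCTRL cells 6.80% of all tested genes rose and 6.14% fell, and in siMITF cells 7.99% rose and 12.2% fell. The median log2 change of the 10 genes was -0.09 in siCTRL and 0.02 in siMITF cells, beside -0.07 and -0.10 for all tested genes. With quantile normalization the calls over all genes in siCTRL cells split into 1178 higher and 1647 lower, against 868 and 784 in the fit reported here. These shares of lower genes also moved with single libraries. The 784 lower genes in siCTRL cells became 506, 287 and 457 without siCTRL library 1, 2 or 3, and 385 and 374 without siCTRL + IFNγ library 1 or 3. The 1554 lower genes in siMITF cells became 929, 768 and 1014 without siMITF library 1, 2 or 3.

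SPRY2 was lower in all 3 libraries with IFNγ than in any siCTRL library without it, at 18.3, 24.8 and 22.2 TPM against 26.9, 33.9 and 29.8 TPM, and fell by 0.46 ± 0.12 (SE; adjusted p = 0.0215). After siMITF it was 41.9, 48.4 and 50.7 TPM with and 72.4, 75 and 71.9 TPM without IFNγ, a fall of 0.63 ± 0.12 (adjusted p = 0.00213). The 4 conditions therefore did not overlap for SPRY2, in the order siMITF, siMITF + IFNγ, siCTRL, siCTRL + IFNγ. SPRED1 fell by 0.49 ± 0.13 in siCTRL cells (adjusted p = 0.0297) and by 0.43 ± 0.13 in siMITF cells (adjusted p = 0.037), also without overlap. Its siMITF + IFNγ libraries, at 37.7 to 44.5 TPM, overlapped the siCTRL libraries, at 33.4 to 40.7 TPM.

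The fall of SPRY2 in siMITF cells held in all 12 fits that left out 1 library. In siCTRL cells both SPRY2 and SPRED1 lost the call without siCTRL library 2 or 3 or siCTRL + IFNγ library 1 or 3. The SPRED1 call in siMITF cells held in 5 of 12 fits, and was lost without siCTRL library 3 or any one of the 6 siMITF and siMITF + IFNγ libraries. The log2 change over all alternatives ran from -0.55 to -0.34 for SPRY2 and from -0.60 to -0.33 for SPRED1 in siCTRL cells. Mitochondrial genes took 7.42% to 14.81% of the TPM in siCTRL and 8.45% to 16.86% in siCTRL + IFNγ libraries, and LYZ moved with IFNγ as given above. The part of either in the result was not tested. The ratio of SPRY2 to DUSP6 within a library, 0.287 to 0.315 without and 0.171 to 0.22 with IFNγ after siCTRL, did not overlap between these conditions, but DUSP6 had its own log2 change of 0.16 there, so this ratio holds the changes of both genes.

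The other 8 genes did not pass the test for IFNγ. The closest was ETV4 in siMITF cells, where all 3 libraries with IFNγ were lower and the log2 change was -0.24 ± 0.08 (SE; adjusted p = 0.0567). It passed with the replicate number as a block (adjusted p = 0.0104), as did PHLDA1 in siMITF cells, whose log2 change was 0.21 ± 0.10 (adjusted p = 0.157, and 0.0236 with the block). ETV4 and PHLDA1 also passed there with quantile normalization (adjusted p = 0.0141 and 0.00188) and median centring (0.0127 and 0.00222). Both passed with length and GC trends removed together with the block (0.00938 and 0.0201), and ETV4 without siCTRL + IFNγ library 1 or 2. In siCTRL cells PHLDA1 passed as lower with median centring (adjusted p = 0.037), and ETV4 with trends removed together with the block (0.00783). The block brought the count in siMITF cells from 2 to 4 genes, and that over all tested genes from 2574 to 4556. DUSP6 had log2 changes of 0.16 ± 0.07 in siCTRL cells (adjusted p = 0.158) and 0.14 ± 0.07 in siMITF cells (adjusted p = 0.168). With quantile normalization DUSP6 passed in both (adjusted p = 0.0417 and 0.0472), and in siCTRL cells it also passed with length and GC trends removed together with the block (0.0213). For DUSP4, SPRY4 and EGR1 the 95% intervals in siCTRL cells were -0.34 to 0.31, -0.34 to 0.32 and -0.31 to 0.65.

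The third question was whether the response to IFNγ differed between siMITF and siCTRL cells. None of the 10 genes passed the interaction test of limma, where 0.705% of tested genes had a positive and 0.243% a negative interaction. At an unadjusted p under 0.05 there was 1, PHLDA1. PHLDA1 had a mean of 115 TPM in siCTRL, 102 TPM in siCTRL + IFNγ, 158 TPM in siMITF and 184 TPM in siMITF + IFNγ libraries. Libraries of the same number were all lower with IFNγ after siCTRL and all higher with IFNγ after siMITF. The interaction was 0.38 ± 0.14 on the log2 scale (SE; adjusted p = 0.43). In the paired fit (replicate block) the adjusted p was 0.0535, and over all alternatives it ran from 0.00872, with each library centred on its median, to 0.765.

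Before any correction for the library, the genes deviated together within a condition. In the siCTRL + IFNγ library 1 all 10 genes were below the mean of their condition, by a median of 0.27 on the log2 scale, and in the siMITF + IFNγ library 1 all but DUSP5 were below it, by a median of 0.16. In the siCTRL and siMITF libraries numbered 2 none of the 10 genes was below the mean. The median of all tested genes deviated the same way in these 4 libraries, by -0.13, -0.10, 0.09 and 0.06, with 84.9%, 70.4%, 13.8% and 19.6% of tested genes below the mean of their condition. After subtracting condition means, the 45 pairs of the 10 genes had a median Pearson r of 0.847 over 12 libraries, from -0.134 to 0.97, and all pairs of tested genes had a median of 0.40. With the median deviation of each library removed, the median r of the 45 pairs was 0.318, from -0.905 to 0.928. The value over all pairs of tested genes was not computed after this removal, so 0.318 has no counterpart here. The points share libraries and conditions, so these values are descriptions. Before that removal DUSP5 stood apart, and the 3 pairs with a negative r were its pairs with SPRY4, ETV4 and EGR1.

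Leaving out both libraries numbered 1 with IFNγ kept the siMITF count with IFNγ at 7 and the IFNγ count in siCTRL cells at 2, and brought the IFNγ count in siMITF cells from 2 to 4. Over all tested genes the counts went from 4229, 1652 and 2574 to 4598, 2020 and 3047 in this order. DUSP4 then passed for IFNγ in siMITF cells with a log2 change of 0.298 (adjusted p = 0.0138), as did PHLDA1 with 0.282 (adjusted p = 0.0381), while for siMITF with IFNγ DUSP5 lost its call (adjusted p = 0.166) and DUSP4 gained one (-0.33, adjusted p = 0.00839). This setting was chosen after the values were seen.

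For each gene the most similar other gene over the 12 libraries was found by Pearson r of log2(TPM + 1). The microtubule-associated gene MAP2 followed SPRY2 with an r of 0.997, NUDT3 followed SPRY4 with 0.993 and RNASEH1 followed SPRED1 with 0.988. The best match of EGR1 was AP5B1 with 0.991, of PHLDA1 PHLDB2 with 0.982, of ETV4 AKT1S1 with 0.988 and of ETV5 MED1 with 0.986. Among the phosphatases the matches were DIP2B for DUSP4 with 0.989, ARHGAP12 for DUSP5 with 0.967 and VWA1 for DUSP6 with 0.923. Each is the highest over all tested genes outside the 10, and the libraries share their condition.

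Further genes of the pathway were read from 4 lists of 65 genes, of which 57 were tested. After siMITF without IFNγ 14 rose and 7 fell, which is 24.6% and 12.3% of them beside 21.0% and 13.8% of all tested genes. With IFNγ 9 rose and 7 fell, 15.8% and 12.3% beside 18.4% and 14.7%. Their median log2 change was 0.18 without and 0.11 with IFNγ, beside 0.06 and 0.03 for all tested genes. In response to IFNγ 7 rose and 2 fell in siCTRL cells (12.3% and 3.51%, beside 6.80% and 6.14% of all tested genes), and 5 rose and 2 fell in siMITF cells (8.77% and 3.51%, beside 7.99% and 12.2%). The counts for siMITF without and with IFNγ and for IFNγ in siCTRL and siMITF cells were 21, 16, 9 and 7 in all, and 32, 27, 16 and 20 in the paired fit (replicate block), where the counts over all tested genes went from 4448, 4229, 1652 and 2574 to 6094, 5912, 3281 and 4556.

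Among 7 tested other MAP kinase phosphatases, 3 rose and 1 fell after siMITF without IFNγ (42.9% and 14.3%, beside 21.0% and 13.8% of all tested genes). The one that fell was DUSP10, a phosphatase that mainly acts on the stress kinases p38 and JNK, from 34, 38.7 and 32.3 TPM to 5.94, 6.71 and 4.89 TPM. This was the largest change of the wider lists in that comparison, -2.40 ± 0.12 on the log2 scale (SE; adjusted p = 1.4e-08). Those that rose were DUSP16, by 0.59 ± 0.13, DUSP8, by 0.55 ± 0.16, and DUSP9, by 0.43 ± 0.15. DUSP8 lost its call without siCTRL library 1 or 3 or siMITF library 2. With IFNγ DUSP16 (0.58 ± 0.13) and DUSP14 (0.93 ± 0.19) rose and DUSP10 fell by 1.39 ± 0.12. The block raised this count from 3 to 5, and the share over all tested genes from 33.1% to 46.3%. In response to IFNγ DUSP10 rose in siCTRL (0.42 ± 0.12) and siMITF cells (1.42 ± 0.12) and was the 1 gene of the 7 to pass in either. With the block 4 and 6 passed, where the shares over all tested genes went from 12.9% and 20.2% to 25.7% and 35.7%.

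Of 12 tested other inhibitors of the pathway, 4 rose and none fell after siMITF without IFNγ, and the 33.3% that rose stand beside 21.0% of all tested genes. ERRFI1 (also MIG6), an inhibitor of the EGF receptor, went from 21.8, 25.8 and 24 TPM to 62.3, 65.4 and 62.4 TPM, a log2 change of 1.37 ± 0.09 (SE; adjusted p = 2.2e-07). With IFNγ it went from 22, 27.1 and 22.8 TPM to 63.6, 56.9 and 60.4 TPM, a change of 1.30 ± 0.09. SPRY1 (0.60 ± 0.12) and SPRED2 (0.50 ± 0.10), relatives of the genes above, rose as well, as did IL17RD (0.50 ± 0.16). With IFNγ SPRY1 rose by 0.71 ± 0.12 and SPRED2 by 0.47 ± 0.10, while RASAL2, a RAS GTPase-activating protein, fell by 0.48 ± 0.17. For IFNγ itself 1 of the 12 passed in siCTRL cells, IL17RD (0.51 ± 0.16), and 0 in siMITF cells in limma, where SPRED2 alone had an unadjusted p under 0.05. With the block 2 passed in each, IL17RD and SPRED2 in siCTRL and SPRED2 and CBL in siMITF cells. Of all tested genes 25.7% and 35.7% then passed.

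Of 15 tested other ERK output genes, 4 rose and 5 fell after siMITF without IFNγ (26.7% and 33.3%, where 21.0% and 13.8% of all tested genes did). The receptor gene EPHA2 rose by 0.88 ± 0.17 (SE), and EGR2 (0.33 ± 0.10), FOSL1 (0.55 ± 0.08) and IER2 (0.27 ± 0.10) rose too. EPHA4 fell by 0.70 ± 0.18, EGR3 by 0.65 ± 0.21, MAFF by 0.58 ± 0.13, JUNB by 0.52 ± 0.12 and FOS by 0.45 ± 0.12. The transcription factors of the EGR family thus did not share a direction. The call of EGR3 was lost without siCTRL library 2 or 3 or siMITF library 1 or 2. With IFNγ in siCTRL cells MAFF, a small MAF factor, rose by 1.32 ± 0.13 (adjusted p = 1.4e-05), from 27.1, 31.6 and 28.3 TPM to 64.1, 83.3 and 74.8 TPM. FOS (0.49 ± 0.12) and FOSL1 (0.40 ± 0.08) rose and MYC fell by 0.55 ± 0.09 in the same comparison. In siMITF cells 3 of the 15 passed for IFNγ, MAFF, FOS and MYC, and 6 did with the block, which added JUNB, IER2 and EPHA4. Over all tested genes the block raised the share from 20.2% to 35.7%.

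Of 23 tested genes of the RAS-RAF-MEK-ERK cascade, 3 rose and 1 fell after siMITF without IFNγ, shares of 13.0% and 4.35% beside 21.0% and 13.8% of all tested genes. The block raised the count from 4 to 11, and with IFNγ from 3 to 8. Over all tested genes it raised the share called from 34.8% to 47.7%, and with IFNγ from 33.1% to 46.3%. NRAS, one of the RAS genes, went from 124, 142 and 132 TPM to 31.8, 36.7 and 33.7 TPM, a log2 change of -1.93 ± 0.11 (SE; adjusted p = 3.7e-08). With IFNγ NRAS went from 106, 137 and 127 TPM to 36, 43.7 and 40.1 TPM, a change of -1.60 ± 0.11. The exchange factors SOS1 (0.45 ± 0.10) and SOS2 (0.40 ± 0.11) and the scaffold KSR1 (0.65 ± 0.23) rose, while the log2 change of the adaptor SHC1 was 0.53 ± 0.20 (adjusted p = 0.0597, and 0.00103 with the replicate block). KSR1 held in 4 of 12 fits that left out 1 library, those without siCTRL + IFNγ library 1 or 2 or siMITF + IFNγ library 1 or 3.

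Of the 23 cascade genes 2 rose and 1 fell with IFNγ in siCTRL cells, and as many did in siMITF cells. The block added PTPN11 in siCTRL cells and NRAS, PTPN11 and ELK4 in siMITF cells. That made 4 and 6 in all, where 25.7% and 35.7% of all tested genes passed. Without the block 8.70% of the list were higher and 4.35% lower. Beside them stood 6.80% and 6.14% of all tested genes in siCTRL cells and 7.99% and 12.2% in siMITF cells. MRAS, a RAS relative, went from 2, 2.81 and 2.26 TPM to 17.1, 29 and 28.1 TPM in siCTRL cells, a log2 change of 2.91 ± 0.22 (SE; adjusted p = 1.0e-06). In siMITF cells it went from 2.51, 4.3 and 3.74 TPM to 27.2, 43.1 and 39 TPM, a change of 3.05 ± 0.22. RPS6KA1, a kinase downstream of ERK, rose by 1.10 ± 0.13 in siCTRL and by 0.77 ± 0.13 in siMITF cells, and its relative RPS6KA3 fell by 0.46 ± 0.11 and 0.37 ± 0.11. DUSP9, DUSP14, IL17RD, RASAL2, CBL, EGR2, FOSL1, IER2, JUNB, FOS, MYC, SOS1, SOS2, RPS6KA3, PTPN11 and ELK4 were named after their values were seen, to account for small counts.

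**Figure D3:**
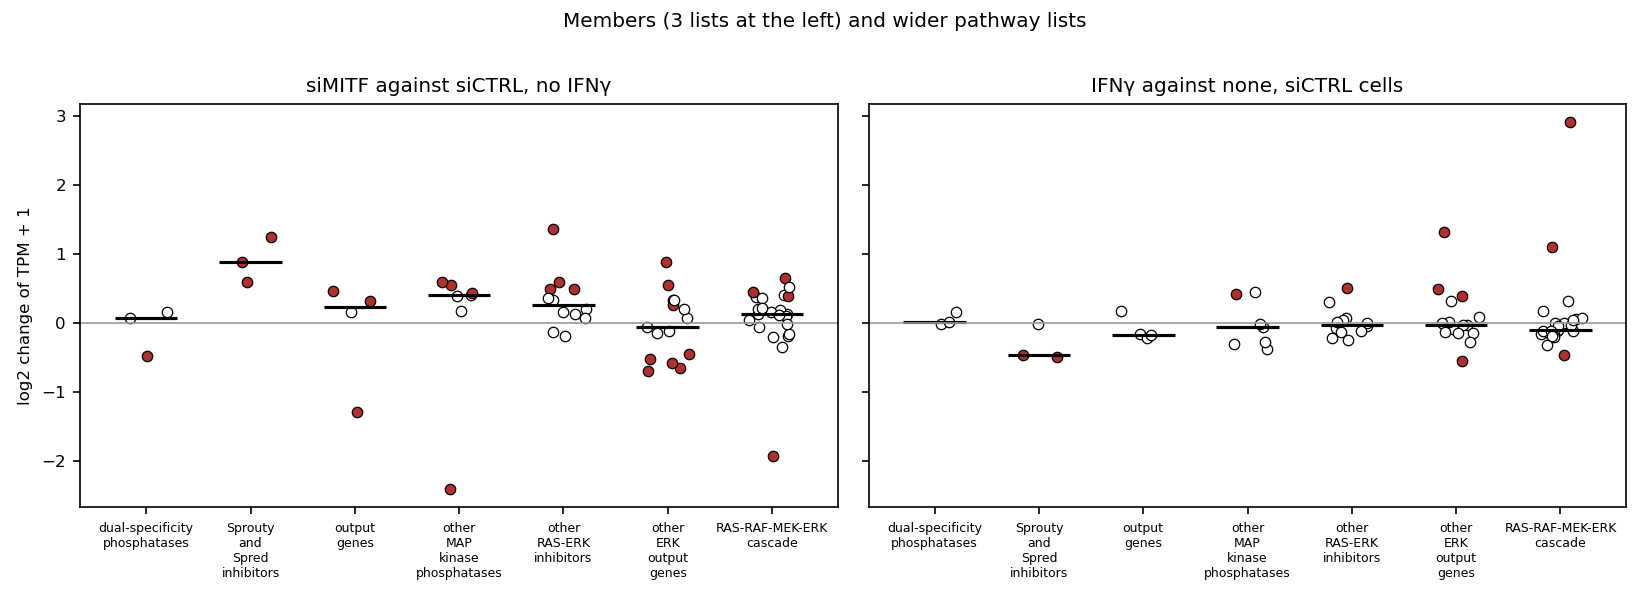
Log2 change of TPM + 1 (vertical axis) of each tested gene, a point each, in the 3 groups of the 10 genes and in the 4 wider lists, after siMITF without IFNγ (left) and with IFNγ in siCTRL cells (right). Filled points had adjusted p under 0.05 and lines are list medians. The median of the Sprouty and Spred genes is 0.88 at the left and -0.46 at the right.

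**Figure D4:**
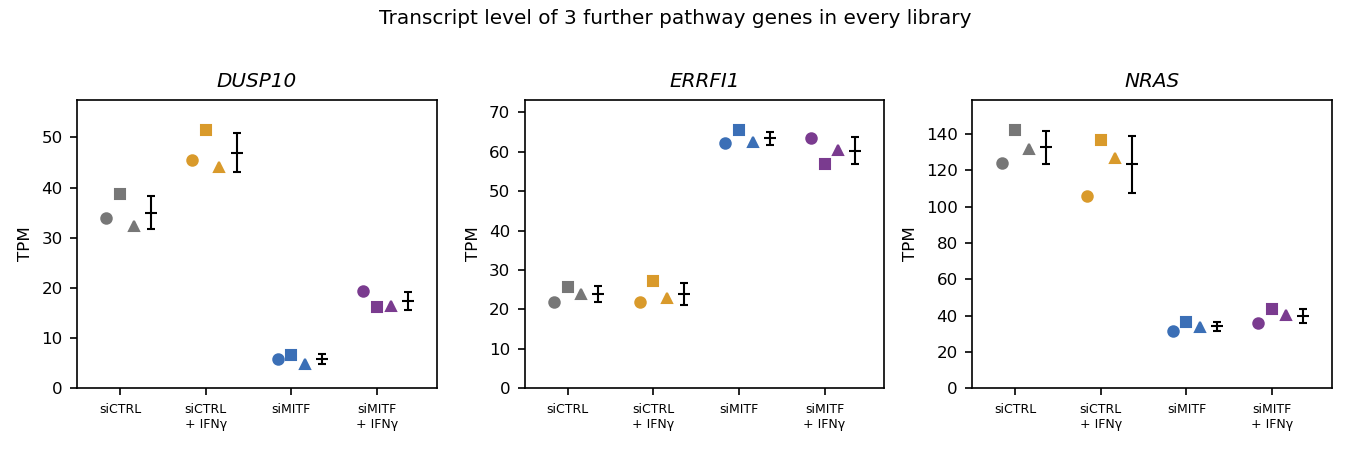
TPM (vertical axis, from 0) of DUSP10, ERRFI1 and NRAS in each library, with circles, squares and triangles for libraries 1, 2 and 3 and the mean ± SD of 3 libraries beside them. All siMITF libraries lie apart from all siCTRL libraries, and DUSP10 is also higher with IFNγ than without.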

How the data were processed

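RNA of 624Mel cells (12 libraries) was analysed from the deposited TPM per Ensembl gene. Per the paper's methods and the submitters' processing notes, the authors trimmed reads with Trimmomatic 0.39 and used kallisto with the GRCh38 transcripts of Ensembl. The release, and the tool that summed transcripts to genes, are not given in the sources used here. The authors' DESeq2 1.26.0 tests on counts were not used. TPM hide the depth of a library, and a few abundant transcripts, such as mitochondrial ones, lower all others.

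TPM were transformed as log2(TPM + 1), which understates changes of low genes. limma 3.58.1 in R 4.3.3, with an intensity trend, was fitted to all 12 libraries with 1 coefficient per condition, for 12773 genes averaging 2 TPM or more in any condition, and p-values (two-sided) were adjusted after Benjamini and Hochberg over these genes. A gene passed with an adjusted p under 0.05. The fit was tested on simulated data. An exact permutation test of 3 libraries against 3 cannot give p below 0.1 and was not used.

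The members and lists were chosen with earlier results of these data known. Some items are not reported here and are left out of the list counts. Named genes were the 10 members, MITF, genes of the wider lists with an adjusted p under 0.05 and a log2 change of at least 1, the 3 largest siMITF changes per list, and the gene most like each member. After subtracting condition means, all 18 pairs of libraries with the same replicate number correlated across genes by over 0.1 (0.102 to 0.625). Pairs with different numbers had a median of -0.196 and reached 0.226, and 6 of 36 were over 0.1. Subtracting the means by itself pushes these pairs below 0 where same-number pairs lie above it. The numbers were therefore treated as pairing the libraries, which the labels do not state. The paired fit (number as block) is given beside the members where it changed a call and beside list counts it moved by over 1.5 times. Alternatives were pseudocounts of 0.1 and 0.5, no filter, a mean of at least 5 TPM, quantile normalization, median centring, no intensity trend, only the 2 conditions compared, the block, an adjusted p under 0.01, and each library left out. Removing length and GC trends (alone or with the block) and leaving out both libraries numbered 1 with IFNγ were added after seeing the data. Gene positions are from GENCODE 44 and promoters from RefSeq. Python 3.11.15, pandas 2.3.3 and matplotlib 3.10.9 made the tables and figures.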

Additional observations from a re-analysis of the deposited data

Results flagged for a closer look

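DUSP10, a phosphatase of the stress kinases from the wider list, is named because its log2 response to IFNγ differed between the siRNAs by an interaction test. It measured 34, 38.7 and 32.3 TPM in siCTRL and 45.5, 51.4 and 44.1 TPM in siCTRL + IFNγ libraries, and 5.94, 6.71 and 4.89 TPM in siMITF and 19.4, 16.2 and 16.4 TPM in siMITF + IFNγ libraries. DUSP10 rose with IFNγ by 0.42 ± 0.12 (SE) on the log2 scale in siCTRL cells and by 1.42 ± 0.12 in siMITF cells. The difference between these responses was 1.00 ± 0.17 (limma, adjusted p = 0.0108), and it passed in all 12 leave-one-out fits. In TPM the means went from 35 to 47 in siCTRL cells and from 5.85 to 17.3 in siMITF cells, rises of similar size. The interaction is thus one of ratios, from a lower level in siMITF cells. The response in siCTRL cells, smaller on the log2 scale, lost its call without any one of the 3 siCTRL + IFNγ libraries. It was also lost without siCTRL library 1 or 3 or siMITF library 1. With and without IFNγ the siMITF libraries lay below the siCTRL libraries.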

How the results depend on the processing

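The counts of members past the test for siMITF stayed within 1.5 times of 7 under every alternative, with and without IFNγ. The IFNγ counts were small and moved. In siCTRL cells the count of 2 went to 0 without a filter on low values, with only the 2 conditions compared and at an adjusted p under 0.01, and to 4 with length and GC trends removed together with the replicate block. The share of all tested genes called went from 12.9% to 5.17%, 8.44%, 6.79% and 29.1% in this order. Leaving out 1 library gave a count of 0 to 2. In siMITF cells the count of 2 became 1 without a filter and at an adjusted p under 0.01, 5 with quantile normalization, and 4 with median centring, with the replicate block, with length and GC trends removed plus the block, and without both IFNγ libraries numbered 1. The share of all tested genes called went from 20.2% to 8.74% without a filter. At an adjusted p under 0.01 their number went from 2574 to 1408. The share went to 31.3% with quantile normalization. It went to 29.8%, 35.7%, 40.7% and 23.9% in the settings that gave 4 members, in the order named. Leaving out 1 library gave a count of 1 to 3 members. The interaction count of 0 became 1 (PHLDA1) with quantile normalization and with median centring. Of all tested genes 2.30% and 2.06% were called there, against 0.947%.

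For the wider lists an adjusted p under 0.01 left 13 genes of 21 for siMITF without IFNγ, 5 of 9 for IFNγ in siCTRL cells and 0 of 1 for the interaction. Over all tested genes the shares called went from 34.8%, 12.9% and 0.947% to 23.2%, 6.79% and 0.470%. For siMITF without IFNγ the count of 21 became 32 with median centring, with the replicate block and without both IFNγ libraries numbered 1. Over all tested genes 44.4%, 47.7% and 46.7% were called there, against 34.8% in the fit reported here. For siMITF with IFNγ the count of 16 became 26 with quantile normalization, 28 with median centring, 27 with the replicate block and 30 with trends removed plus the block. The share of all tested genes went from 33.1% to 44.6%, 43.2%, 46.3% and 50.0% in this order. For IFNγ in siCTRL cells the count of 9 became 15, 16, 16 and 20 in the same order, and 14 without both IFNγ libraries numbered 1. The number of all tested genes called went from 1652 to 2825, 2814, 3281 and 3721, and to 2020 without these libraries. For IFNγ in siMITF cells the count of 7 became 18, 17, 20 and 21, and 6 to 12 without 1 library, where 12 was reached without siCTRL + IFNγ library 1. The share of all tested genes went from 20.2% to 31.3%, 29.8%, 35.7% and 40.7%, and to 24.5% without siCTRL + IFNγ library 1. The interaction count became 2 under each of the 4 settings given for siMITF with IFNγ. Of all tested genes 2.30%, 2.06%, 2.16% and 2.45% were then called. The cause was not tested.

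Of 1190 log2 changes of members under alternatives, 1072 kept direction and call, 47 lost and 29 gained the call, and 42 changed sign, none of them in a result past the test. For IFNγ in siCTRL cells DUSP4 turned to 0.0303 with quantile normalization, 0.0035 with median centring and 0.144 without both libraries numbered 1, and SPRY4 to 0.0318, 0.00304 and 0.148. DUSP5 turned to -0.0143 with quantile normalization and to -0.0518 with trends removed, with or without the block. For IFNγ in siMITF cells EGR1 turned to 0.00165, 0.0312 and 0.235 under the 3 settings named first. In the interaction DUSP6 turned to 0.00247 with median centring, SPRED1 to -0.0299 and ETV4 to 0.0236 with trends removed, with or without the block, and SPRED1 to -0.0337 without both libraries numbered 1. Leaving out 1 library, the IFNγ effect in siCTRL cells ran from -0.126 to 0.144 for DUSP4, from -0.0357 to 0.0489 for DUSP5 and from -0.133 to 0.148 for SPRY4, and that in siMITF cells from -0.0656 to 0.21 for SPRY4 and from -0.161 to 0.235 for EGR1. The interaction ran from -0.0122 to 0.311 for DUSP4, -0.0744 to 0.0237 for DUSP6, -0.1 to 0.223 for SPRY4, -0.104 to 0.172 for SPRED1, -0.136 to 0.00731 for ETV4, -0.11 to 0.164 for ETV5 and -0.359 to 0.0649 for EGR1. The block changed no other call of a member than those given above. TPM carry no depth, so counting error is unknown.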
